A study of Mus musculus with 17 samples.

Results

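Mouse lacrimal gland organoids that had been switched to differentiation medium were compared with the lacrimal gland itself. The comparison uses 6 of the 17 RNA-seq samples of the study: 3 pieces of wild-type gland tissue, numbered LG6, LG7 and LG8, and 3 uncloned wild-type organoid cultures of the same numbers. The samples were chosen by their titles. The organoids had been grown for 2 days in expansion medium (EM) and then for 5 days in differentiation medium (DM). Another group of 3 cultures with the same numbers, kept in EM for 7 days, is given beside them where it places a level. No treatment is listed for the tissue, no deletion or transgene is listed for any of these samples, and their strain, age and sex were not given in the sources used here. Organoids are small epithelial structures grown in a basement membrane extract, so no stroma, vessel, nerve or circulating cell is part of the culture by design, whereas the gland pieces hold all of them. The labels do not say whether gland and organoids of 1 number came from 1 animal, and nothing says that the 3 cultures were started apart, so p-values measure the spread between these samples.

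The lacrimal gland makes the watery layer of the tear film. Its acinar cells carry a large endoplasmic reticulum (ER), where tear proteins are threaded in, folded and glycosylated, and store them in granules until nerves signal through muscarinic and adrenergic receptors, calcium and chloride channels. Ducts modify the fluid, and contractile myoepithelial cells wrap the acini. Basal cells of gland ducts and of stratified epithelia share Krt5, Krt14 and Trp63, and the ocular surface next to the gland is a stratified epithelium.

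The count tables differed most in how counts were spread over genes. Totals spanned 14144109 to 19207469 in the gland libraries and from 12801473 to 16751502 in the DM libraries. The top 10 genes together took 65.5% to 67.6% of the counts in gland and 5.96% to 6.72% in DM organoids. The most abundant 5 genes held 50% of all counts in each gland library, and 794 to 878 genes were needed in the DM libraries. Levels are therefore given as CPM, the count of a gene for each 1000000 units of a library size scaled with edgeR's TMM factors (trimmed mean of M-values), which assumes that most genes do not differ between groups. The scaling factors were 0.388 to 0.405 for gland and 1.53 to 1.56 for DM, so CPM do not add up to the same sum in gland as in DM libraries. A single count was worth 0.129 to 0.182 CPM in gland and 0.0384 to 0.0513 CPM in DM organoids.

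**Figure D1:**
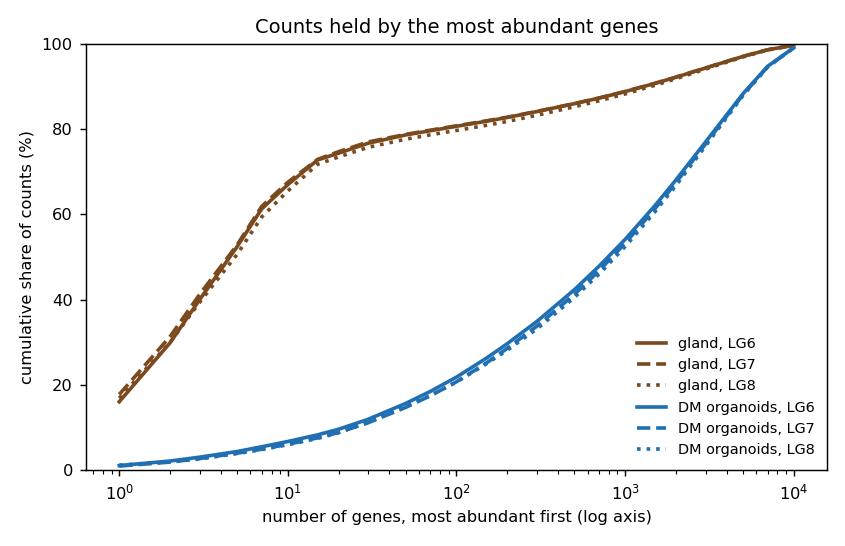
Cumulative share of counts (%, vertical axis) held by the most abundant genes (number of genes, horizontal log axis) in the 3 gland libraries (brown) and the 3 DM organoid libraries (blue). The gland curves pass 50% of the counts at 5 genes, and the DM curves between 794 and 878 genes.

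Most of the transcriptome differed between the groups at these depths. Of 13713 genes tested, 10358 (75.5%) passed the edgeR quasi-likelihood test at an adjusted p under 0.05, 5223 (38.1%) higher and 5135 (37.4%) lower in DM organoids. A fold of 2 or more was reached by 3446 of the higher and 3062 of the lower genes. The CPM of the 3 gland and 3 DM libraries did not overlap for 10563 genes (77.0%). The split depends on the scaling. With library sizes set to total counts, 11516 genes (84.0%) were higher and 1270 (9.26%) lower, because the median of all genes moves up by 1.97 on the log2 scale. Counts of list members with total counts, given below, stand beside these 2 shares. With total counts taken without the 10 genes most abundant in gland, 6890 were higher and 3684 lower, a shift of 0.39. A gene is said below to keep its call where it was called in 1 direction under all 5 scalings tried, which held for 4874 higher (35.5%) and 1270 lower genes (9.26%). A gene that fell by less than about 1.97 under TMM scaling did not fall with total counts, and this is stated beside each such gene named as its value with total counts.

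Libraries of 1 group resembled each other, with DM libraries the most spread. Among genes of at least 10 CPM in their group, the highest library was more than 2-fold above the lowest for 93 of 8171 genes in gland (1.14%) and for 380 of 8367 in DM organoids (4.54%). Of those 380 genes, 222 were highest in the DM library of LG8. Acta2, Dst, Stat2, Ccng1 and the count of cell division genes are given with and without it. Kcnn4, Aqp4, Fbln1, H2-K1, Psmb8 and the summed level of interferon genes, among others, are given by library only.

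Tear proteins had the lowest median of all lists. Of 37 listed tear products, 34 could be tested, 26 were lower and 7 higher in DM organoids, with a median log2 fold change of -12.08 against 0.02 for all genes. The list held 57.1% to 57.9% of all counts in the gland libraries and 2.08% to 2.54% in the DM libraries. Of the lower members, 24 kept their call under every scaling. Among all genes tested, 37.4% were lower, 38.1% were higher and 9.26% kept a lower call. Secretoglobins, odorant-binding proteins and other tear genes stand in clusters of near copies, so counts of single copies are uncertain.

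Mucl2, a small secreted mucin-like protein, had 2330410, 2510712 and 3243911 counts in the gland libraries of LG6, LG7 and LG8 and 31, 24 and 0 counts in the DM libraries, the order used throughout. It fell by 19.04 (SE 0.91, adjusted p = 6.78e-09) on the log2 scale, which is also the scale of every rise and fall given below. Obp1a, an odorant-binding lipocalin, had 2005624, 1917855 and 2507768 counts in gland and 18, 15 and 1 in DM organoids. Scgb1b2, a secretoglobin, had 974296, 872297 and 1171032 counts in gland and 8, 6 and 0 in DM organoids. All 3 genes were among the 10 most abundant of the gland, none of which was among the 10 most abundant of DM organoids. Summed over those 10 gland genes, the DM libraries of LG6, LG7 and LG8 held 106, 94 and 6 counts. The origin of these few counts was not tested, so the size of these falls is uncertain. The EM libraries held 11, 10 and 83 counts on the same genes, the most in LG8.

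Enzymes that are typical of lacrimal acini followed. Lpo, the peroxidase of tears, stood at 3334, 4343 and 5100.2 CPM in the gland libraries and 1.23, 1.54 and 1.82 CPM in the DM libraries, and fell by 11.42 (SE 0.25, adjusted p = 4.10e-11). Its level in DM organoids was above that in EM organoids (0.498, 0.585 and 0.786 CPM), by 1.30 (SE 0.30, adjusted p = 0.00791). Car6, the secreted carbonic anhydrase, stood at 5451, 5138 and 4784 CPM in the gland libraries and 0.0513, 0.0384 and 0.0792 CPM in the DM libraries. It fell by 16.30 (SE 0.24, adjusted p = 1.18e-11). Dnase1, a secreted nuclease, had 46708, 60508 and 79760 counts in gland and none in any DM library, and was at least 233410.0-fold lower in DM organoids (adjusted p = 5.55e-09). Pnliprp1, a lipase-related protein, and Sval2, a seminal vesicle antigen-like protein, also had no count in DM organoids and were at least 180860.0-fold and at least 173140.0-fold lower. Gland and DM libraries did not overlap for any of these genes.

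Another set of tear products was made by the organoids, and some of it in larger amounts than in gland. Ltf, the iron-binding lactoferrin, stood at 1331, 1690.1 and 1941 CPM in the gland libraries and 6957, 6081 and 7505 CPM in the DM libraries. It rose by 2.05 (SE 0.16, adjusted p = 3.89e-07) and was the most abundant gene of DM organoids, although EM organoids had more (9909, 10148 and 9842 CPM). Clu, a secreted chaperone, stood at 61.1, 99.3 and 66.5 CPM in the gland libraries and 3971, 3927 and 4261 CPM in the DM libraries and rose by 5.75 (SE 0.22, adjusted p = 1.33e-09). Every DM library lay above every gland library for both. Wfdc18 (1273 CPM in gland and 2821 in DM), Sftpd (129 and 553), Wfdc2 (4.87 and 489.6) and Slpi (0.102 and 23.5), all secreted host defence proteins, were higher as well. Wfdc2 and Slpi stood above the DM level in EM organoids, at 1013 and 37.6 CPM. Cst3, the protease inhibitor cystatin C, rose by only 0.30 (SE 0.11, adjusted p = 0.0328), a call lost without gland LG6, gland LG8 or DM LG6 (0.25, 0.29 and 0.24). Pigr, the receptor that carries IgA into tears, was present at a lower level, with 1139, 1236 and 747 CPM in the gland libraries and 313, 190.0 and 295 CPM in the DM libraries. It fell by 1.97 (SE 0.21, adjusted p = 5.36e-06) under TMM scaling and had a log2 fold change of 0.01 with total counts.

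The counts for regulators of the lacrimal lineage lay near those for all genes (38.1% higher and 37.4% lower). Of 17 tested, 8 were higher and 7 lower, with a median of 0.02. For 5 of them the 95% interval of the fold change lay inside a 2-fold band, which held for 4874 of all genes tested (35.5%). Pax6, the eye and lacrimal gland master regulator, stood at 296, 313 and 296 CPM in the gland libraries and 178, 168 and 186 CPM in the DM libraries. It fell by 0.77 (SE 0.10, adjusted p = 3.21e-05), with a 95% interval of -0.99 to -0.54, and was 1.21 higher with total counts. EM organoids held it at 173 CPM. Sox9, needed for the budding gland, stood at 89.1, 93.3 and 86.1 CPM in the gland libraries and 84.9, 104 and 83.7 CPM in the DM libraries and had a log2 fold change of 0.02 (95% interval -0.20 to 0.25, adjusted p = 0.849), or 2.00 with total counts. Foxc1, another regulator of gland growth, stood at 63.7, 70.2 and 76.1 CPM in the gland libraries and 55.4, 54.0 and 63.8 CPM in the DM libraries and fell by 0.28 (SE 0.10, adjusted p = 0.0191). This call was lost without gland LG8, DM LG6 or DM LG7 (-0.21, -0.22 and -0.23), and Foxc1 was 1.69 higher with total counts and 0.11 higher with total counts without the 10 genes. Fgfr2, a growth factor receptor that gland budding needs, had a log2 fold change of -0.08 (95% interval -0.50 to 0.35), or 1.89 with total counts.

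Other members of the lineage list moved far. Sox10, which marks acinar and myoepithelial fate in exocrine glands, stood at 22.7, 21.9 and 25.3 CPM in gland and had no count in any EM or DM library, at least 556-fold lower. Etv1 stood at 48.1, 46.8 and 55.9 CPM in the gland libraries and 0.666, 1.58 and 1.35 CPM in the DM libraries and fell by 5.35 (SE 0.22, adjusted p = 2.39e-09), while its relative Etv4, also a target of FGF signalling, stood at 0.178, 0.182 and 0.386 CPM in the gland libraries and 20.5, 27.1 and 21.3 CPM in the DM libraries and rose by 6.41 (SE 0.28, adjusted p = 3.35e-09). The gland libraries and the DM libraries were thus in opposite order for these related factors. Runx2 and Eya2 rose, from 16.0 to 49.4 CPM and from 27.2 to 122 CPM. Meis1 and Six2 fell by 0.96 (SE 0.09, adjusted p = 1.12e-06) and 0.96 (SE 0.13, adjusted p = 4.31e-05), and stood 1.01 and 1.02 higher with total counts. Mitf fell by 1.95 (SE 0.35, adjusted p = 3.24e-04) and had a log2 fold change of 0.01 with total counts.

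Of 15 tested transcription factors that build the secretory cell, 12 were lower and 2 higher under TMM scaling, with a median of -1.48. Over all genes, 37.4% were lower and 38.1% higher. This direction rests on the scaling: with total counts 9 were higher and 5 lower, with a median of 0.49. Under every scaling, 5 of the lower ones kept their call. Bhlha15, also named Mist1, sets up granules and ER in acinar cells of many glands. It stood at 1143, 1075 and 1150.3 CPM in the gland libraries and 0.564, 0.577 and 1.15 CPM in the DM libraries and fell by 10.49 (SE 0.20, adjusted p = 2.37e-11). Xbp1, the effector of the unfolded protein response that enlarges the ER, stood at 1068, 1359 and 1299 CPM in the gland libraries and 173, 163 and 228 CPM in the DM libraries and fell by 2.72 (SE 0.15, adjusted p = 2.70e-08). Both were low in every DM library, but Xbp1 kept a level of 188 CPM and Bhlha15 one of 0.763 CPM. Elf5, an epithelial factor of secretory alveoli, stood at 106, 113 and 113 CPM in the gland libraries and 1.28, 1.69 and 2.02 CPM in the DM libraries and fell by 6.03 (SE 0.15, adjusted p = 8.06e-11). Creb3l1, which drives secretory pathway genes, fell from 52.0 ± 6.81 to 0.29 ± 0.0773 CPM (SD, n = 3), a log2 change of -7.43 (SE 0.23, adjusted p = 2.73e-10). The epithelial factor Ehf stood at 635, 649 and 544 CPM in the gland libraries and 656, 606 and 769 CPM in the DM libraries, with a log2 fold change of 0.15 (95% interval -0.09 to 0.40), or 2.13 with total counts. Elf3 and the stress factor Ddit3 were the 2 members that rose, Elf3 from 21.8 to 453 CPM and Ddit3 from 7.16 to 20.4 CPM, and both were higher still in EM organoids (653 and 44.6 CPM).

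The machinery that links nerve signals to fluid secretion held lower and higher members. Of 23 tested genes, 13 were lower and 8 higher, with a median of -1.09. Over all genes, 37.4% were lower and 38.1% higher. With total counts 9 were lower and 12 higher, and 9 lower and 7 higher members kept their calls under every scaling. All 8 higher members are named below but only a part of the 13 lower ones, so the named genes do not show the balance of each step. The receptors named here were low. Chrm3, the muscarinic receptor that triggers lacrimal secretion, stood at 20.6, 23.5 and 19.7 CPM in the gland libraries and 2.56, 1.65 and 4.24 CPM in the DM libraries and fell by 2.91 (SE 0.28, adjusted p = 2.16e-06). Adra1a, an adrenergic receptor, stood at 20.8, 21.1 and 17.7 CPM in gland and had no count in any EM or DM library, at least 463-fold lower. The ATP receptor P2rx4 fell from 189 ± 16.9 to 35.7 ± 2.91 CPM (SD, n = 3), a log2 change of -2.40 (SE 0.09, adjusted p = 1.43e-09).

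The steps inside the cell that are named here were present, several above the gland level. Itpr3, the IP3 receptor that releases stored calcium at the acinar apex, stood at 75.3, 74.4 and 80.0 CPM in the gland libraries and 268, 331 and 242 CPM in the DM libraries and rose by 1.87 (SE 0.11, adjusted p = 5.25e-08). Itpr2 rose by 2.09 (SE 0.15, adjusted p = 1.70e-07), the phospholipase Plcb3 by 1.64 (SE 0.11, adjusted p = 1.04e-07), the kinase Prkcd by 1.65 (SE 0.10, adjusted p = 3.78e-08) and the calcium pump Atp2b1 by 1.73 (SE 0.10, adjusted p = 3.07e-08). Gnaq, the G protein behind the muscarinic receptor, rose by 0.63 (SE 0.08, adjusted p = 1.54e-05) and its relative Gna11 fell by 0.37 (SE 0.09, adjusted p = 0.00351), with Gna11 at 1.60 with total counts and 0.02 without the 10 most abundant gland genes. Stim1, the calcium sensor of the ER, had a log2 fold change of -0.17 (95% interval -0.50 to 0.17), or 1.80 with total counts.

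Channels and transporters differed one from another. Aqp5, the water channel of the acinar apex, stood at 353, 295 and 353 CPM in the gland libraries and 19.99, 24.2 and 22.2 CPM in the DM libraries and fell by 3.91 (SE 0.12, adjusted p = 2.46e-10). In EM organoids it stood at 1.99, 1.61 and 2.15 CPM, so the DM libraries lay between the EM and the gland libraries, 3.53 above EM (SE 0.14, adjusted p = 4.88e-07). Kcnma1, the large calcium-activated potassium channel, stood at 49.5, 47.8 and 36.4 CPM in the gland libraries and 0, 0.0384 and 0.0792 CPM in the DM libraries, and was 1029-fold lower in DM organoids (95% counting interval 351 to 4998, adjusted p = 8.14e-10). Kcnn4, the intermediate potassium channel, stood at 40.3, 31.9 and 37.5 CPM in the gland libraries and 32.3, 41.6 and 12.4 CPM in the DM libraries. It had a log2 fold change of -0.35 (95% interval -1.11 to 0.41, adjusted p = 0.373), or 1.62 with total counts, and the DM library of LG8 was the one below all gland libraries. In EM organoids it stood at 4.11, 2.6 and 4.14 CPM, and DM organoids were 3.00 higher than those (SE 0.38, adjusted p = 2.27e-04). Ano1, the calcium-activated chloride channel, rose by 0.38 (SE 0.13, adjusted p = 0.0219), a call lost without gland LG6, gland LG8 or DM LG7 (0.35, 0.36 and 0.29), and Slc12a2, which loads the cell with chloride, rose by 0.69 (SE 0.13, adjusted p = 4.68e-04).

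Of 21 tested genes of granule exocytosis, 11 were lower, 7 higher and 3 not called, with a median of -0.50. Over all genes, 37.4% were lower and 38.1% higher. With total counts 4 were lower and 17 higher, with a median of 1.48. The granule GTPases Rab3d and Rab26 and the granule motor Myo5c were below gland. Rab3d, the granule GTPase of exocrine cells, stood at 437, 418 and 457 CPM in the gland libraries and 79.9, 74.3 and 61.0 CPM in the DM libraries and fell by 2.61 (SE 0.11, adjusted p = 3.26e-09). Rab26 stood at 32.5, 29.2 and 38.1 CPM in gland and had 1 count in all DM libraries, and was 2393-fold lower in DM organoids (95% counting interval 428 to 94666, adjusted p = 2.38e-09). The motor Myo5c stood at 278, 276 and 275 CPM in the gland libraries and 3.23, 1.73 and 6.34 CPM in the DM libraries and fell by 6.19 (SE 0.33, adjusted p = 1.89e-08). Pam, which amidates peptides in granules, fell by 1.36 (SE 0.09, adjusted p = 7.04e-08), or was 0.62 higher with total counts. Not all GTPases of the list were lower: Rab27a was not called, and parts of the fusion machinery named here were not called or rose. Rab27a had a log2 fold change of -0.08 (95% interval -0.45 to 0.29) and Stxbp2 one of -0.14 (95% interval -0.31 to 0.03), or 1.89 and 1.83 with total counts, and Stxbp2 at 0.25 without the 10 most abundant gland genes. Snap23, Stx3, Stx4a and the recycling GTPase Rab11a rose by 0.59, 0.91, 1.22 and 1.59, with adjusted p of 4.00e-04, 7.88e-06, 7.15e-07 and 2.07e-06.

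The plot of levels in each library shows these patterns for 20 genes, with EM organoids in the middle of each panel.

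**Figure D2:**
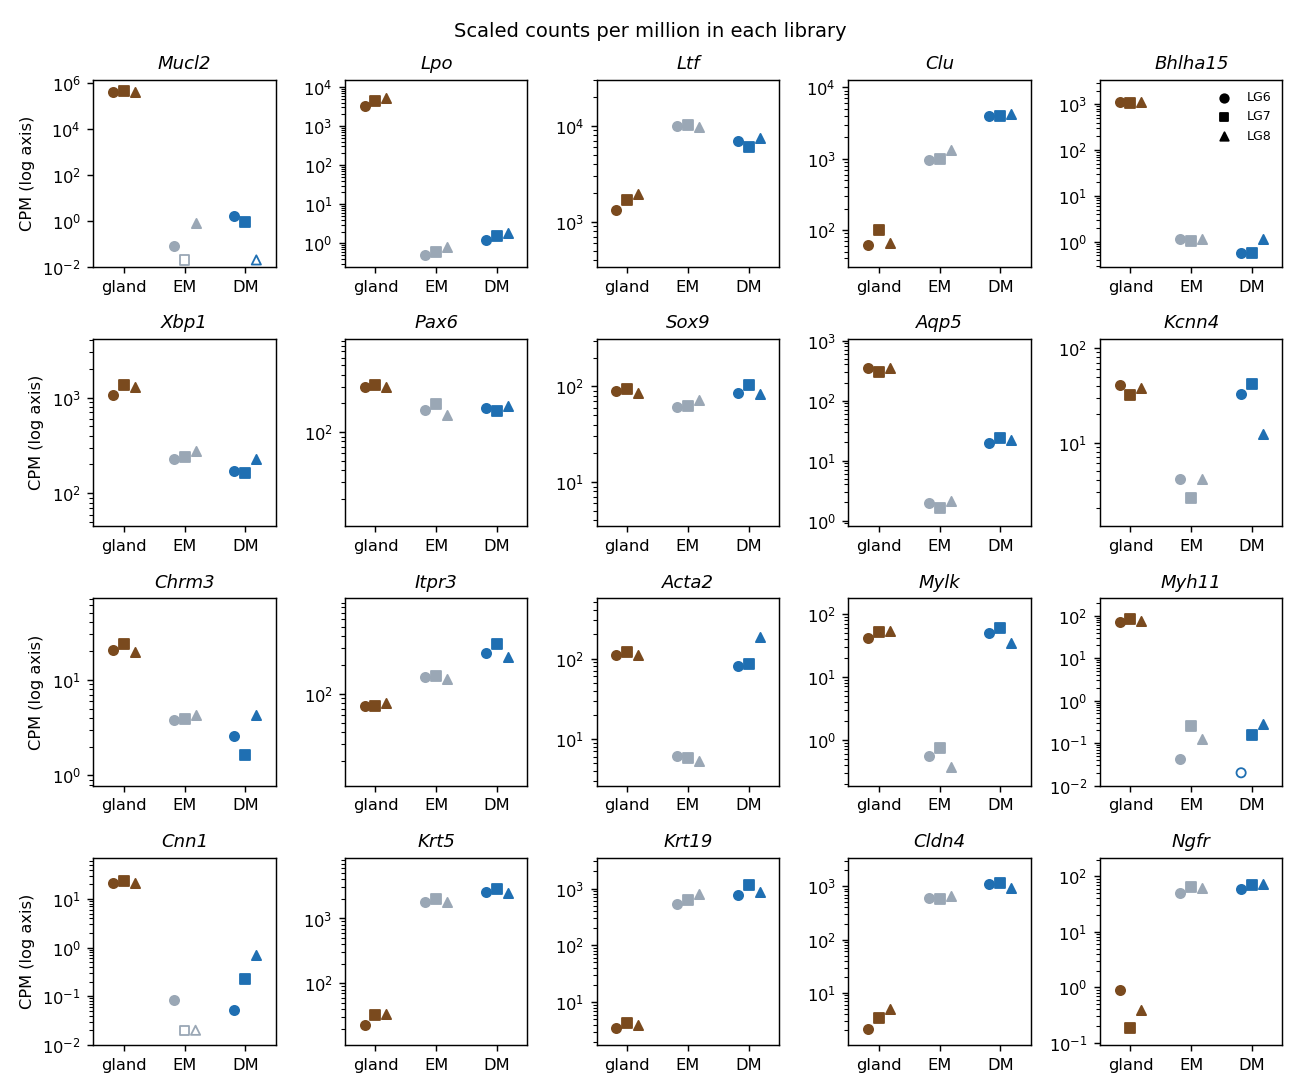
CPM (log axis) of 20 genes in gland (brown), EM organoids (grey) and DM organoids (blue), 1 point a library, with circles for LG6, squares for LG7 and triangles for LG8. Open symbols mark libraries with no count, drawn at 0.02 CPM. Mucl2, Lpo and Bhlha15 lie far below gland in both organoid groups, Kcnn4, Acta2 and Mylk lie near gland in DM and far below it in EM, and Krt5, Krt19, Cldn4 and Ngfr lie far above gland in both.

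The ER entry machinery was lower throughout. All 30 tested genes of protein translocation, signal cleavage and N-glycosylation were lower in DM organoids, with a median of -1.37, and the summed level of the list was 8341 to 9358 CPM in gland and 2979 to 3265 CPM in DM. Among all genes tested, 37.4% were lower. This direction rests on the scaling: 7 members stayed lower under every scaling, and with total counts 21 were higher and 7 lower. With total counts 84.0% of all genes were higher and 9.26% lower. Tram1, next to the translocation channel, stood at 618, 589 and 601 CPM in the gland libraries and 80.3, 74.0 and 83.4 CPM in the DM libraries and fell by 2.93 (SE 0.09, adjusted p = 2.95e-10). Spcs2 of the signal peptidase fell by 2.89 (SE 0.08, adjusted p = 1.97e-10), Srpr, the receptor for the signal recognition particle, by 2.20 (SE 0.08, adjusted p = 6.68e-10), and Srp9 by 2.36 (SE 0.08, adjusted p = 6.22e-10). These 4 were lower with total counts too, with log2 fold changes of -0.95, -0.92, -0.23 and -0.38. The members closest to gland were Stt3b and Stt3a, the catalytic subunits of oligosaccharyl transferase, and Ssr1 of the translocon-associated complex, at -0.38, -0.56 and -0.47, or 1.60, 1.41 and 1.502 with total counts, and Stt3b at 0.01 without the 10 most abundant gland genes.

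Folding and quality control genes spread far more. Of 30 genes, 25 were lower, 2 higher and 3 not called, with a median of -1.53 and a range of -9.12 to 0.93. With total counts 15 were higher and 7 lower, beside 84.0% and 9.26% of all genes. Under TMM scaling 37.4% of all genes were lower and 38.1% higher. Derl3, part of the channel that returns misfolded proteins from the ER, stood at 301, 197 and 383 CPM in the gland libraries and 0.41, 0.654 and 0.475 CPM in the DM libraries and fell by 9.12 (SE 0.32, adjusted p = 5.95e-10). Ero1lb, the oxidase that drives disulfide formation in secretory cells, stood at 350.3, 367 and 389.6 CPM in the gland libraries and 4.05, 4.27 and 4.95 CPM in the DM libraries and fell by 6.38 (SE 0.11, adjusted p = 1.80e-11). Dnajc3, a cochaperone, stood at 784, 712 and 866 CPM in the gland libraries and 128, 116 and 122 CPM in the DM libraries and fell by 2.69 (SE 0.10, adjusted p = 7.25e-10). Each of these was low in every DM library, with no overlap, and was lower with total counts too. The abundant chaperones named here fell less or were not called. Of these, Hsp90b1, Pdia6 and Calr were picked as the list members closest to gland. Hspa5, the chaperone BiP, stood at 1233, 1134 and 1922 CPM in the gland libraries and 856, 790.2 and 921 CPM in the DM libraries, and fell by 0.74 (SE 0.18, adjusted p = 0.00275), or was 1.23 higher with total counts. Without gland LG8, its highest library, Hspa5 had a log2 fold change of -0.46. Hsp90b1 had a log2 fold change of 0.16 (95% interval -0.13 to 0.44), Pdia6 one of 0.07 (95% interval -0.26 to 0.41) and Calr one of -0.25 (95% interval -0.54 to 0.05), or 2.13, 2.04 and 1.72 with total counts. Without gland LG7, Calr was called lower, at -0.37. Pdia3 and Pdia4 were the 2 members that rose, by 0.41 (SE 0.13, adjusted p = 0.0115) and 0.93 (SE 0.17, adjusted p = 4.70e-04).

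**Figure D3:**
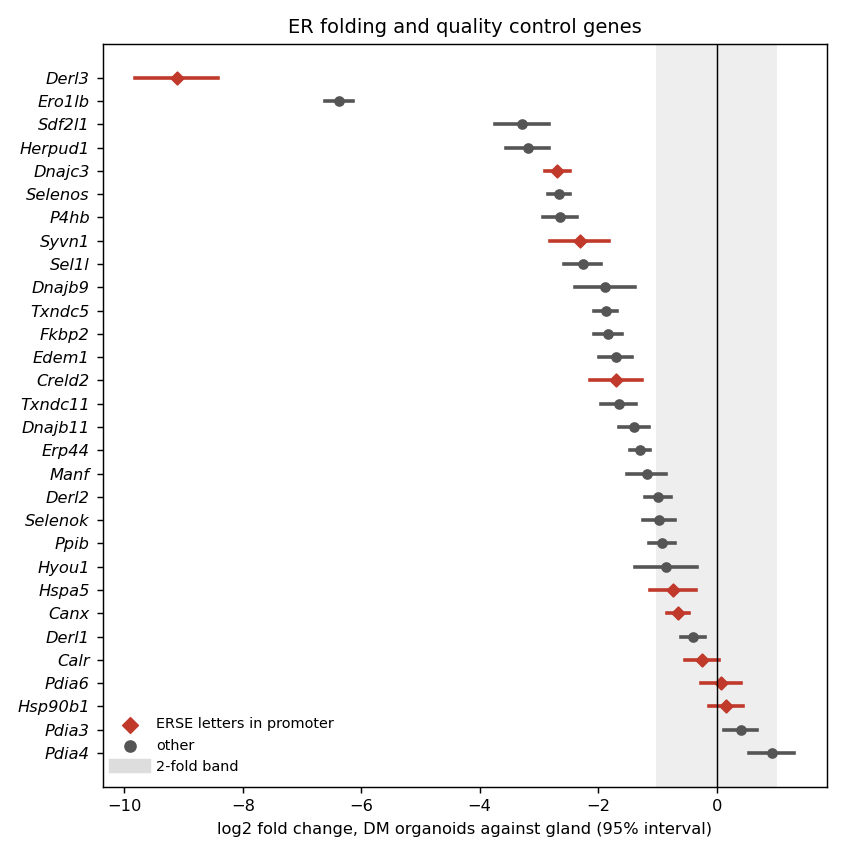
Log2 fold change of DM organoids against gland, with its 95% interval (horizontal axis), for the 30 genes of the ER folding and quality control list, in rank order. Red diamonds mark the 9 genes whose promoter holds the ERSE letters, which lie at both ends of the order, from Derl3 at -9.12 to Hsp90b1 at 0.16, and the grey band spans a 2-fold change.

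Promoter sequences are shown because many of these chaperone genes respond to the unfolded protein response in other cells, through an ER stress response element (ERSE). The 250 bases before the start of each gene were taken from RefSeq (GRCm38.p6) and searched on both strands for the letters of that element, CCAAT and CCACG with any 9 bases between them. They were found in 9 of 26 folding genes with a promoter in the table (34.6%), against 37 of 32817 promoters of all genes (0.113%). The list is counted by gene and the whole by promoter, and the whole includes the listed genes. The folding genes were searched because such genes are known to respond through the element, so the contrast is no test. None of 22 ER translocation genes, none of 27 ER to Golgi genes and 1 of 31 tear products (Esp15) held them. The 9 genes with these letters were not alike in the comparison: Derl3, Dnajc3, Syvn1, Creld2, Hspa5 and Canx were lower, and Calr, Pdia6 and Hsp90b1 were not called. With total counts Canx, Creld2 and Hspa5 had log2 fold changes of 1.32, 0.27 and 1.23. The promoters of the gene that fell most, of Dnajc3 and of a gene at the gland level are given 5′ to 3′ on the strand of the gene, with the element in capitals. Derl3 lies at chr10:75893148-75893397 (+ strand), Dnajc3 at chr14:118937682-118937931 (+ strand) and Pdia6 at chr12:17266339-17266588 (+ strand).
Derl3: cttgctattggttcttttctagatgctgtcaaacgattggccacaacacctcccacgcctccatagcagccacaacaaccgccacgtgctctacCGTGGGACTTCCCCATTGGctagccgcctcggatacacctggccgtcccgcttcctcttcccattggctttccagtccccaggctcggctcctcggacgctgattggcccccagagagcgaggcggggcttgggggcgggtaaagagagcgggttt
Dnajc3: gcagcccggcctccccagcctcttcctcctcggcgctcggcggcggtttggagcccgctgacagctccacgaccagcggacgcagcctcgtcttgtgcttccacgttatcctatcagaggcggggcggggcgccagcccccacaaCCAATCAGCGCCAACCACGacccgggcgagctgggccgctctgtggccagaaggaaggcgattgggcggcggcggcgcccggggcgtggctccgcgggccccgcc
Pdia6: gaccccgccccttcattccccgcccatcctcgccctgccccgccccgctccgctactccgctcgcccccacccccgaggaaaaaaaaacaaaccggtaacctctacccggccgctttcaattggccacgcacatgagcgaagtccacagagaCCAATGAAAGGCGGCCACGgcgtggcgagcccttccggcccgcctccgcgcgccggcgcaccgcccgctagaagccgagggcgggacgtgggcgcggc
In Derl3 the element is on the reverse strand and its first base lies 156 bases before the start. In Dnajc3 and Pdia6 it is on the forward strand, 105 and 98 bases before the start. A match of these letters is a description and says nothing on whether a factor was bound.

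Transport from ER to Golgi was lower by a smaller step, with 26 of 29 tested genes lower, 1 higher and a median of -0.98. With total counts 24 were higher and 2 lower, beside 84.0% and 9.26% of all genes. Under TMM scaling 37.4% of all genes were lower and 38.1% higher. The fusion protein Bet1 fell by 2.77 (SE 0.11, adjusted p = 1.77e-09) and the cargo receptor Tmed3 by 2.72 (SE 0.08, adjusted p = 2.73e-10), and these were the 2 that stayed lower under every scaling. Sec23a, a coat protein of transport vesicles, was the 1 member that rose, by 1.33 (SE 0.13, adjusted p = 2.24e-06), while Golga2, a Golgi matrix protein, had a log2 fold change of -0.16 (95% interval -0.39 to 0.07), or 1.81 with total counts.

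Duct genes were mostly above the gland. Of 27 tested, 19 were higher and 4 lower, with a median of 2.22, and all 19 higher members kept their call under every scaling. Among all genes tested, 38.1% were higher, 37.4% were lower and 35.5% kept a higher call. Below EM organoids were 10 members, where 13.2% of all genes were, and above them 8, where 17.2% were. Keratins of simple and ductal epithelium were among the members higher than in gland. Krt19 stood at 3.55, 4.37 and 3.99 CPM in the gland libraries and 771, 1158 and 861 CPM in the DM libraries and rose by 7.87 (SE 0.25, adjusted p = 3.20e-10). Krt7 stood at 23.8, 31.7 and 34.6 CPM in the gland libraries and 2002, 2022 and 1711 CPM in the DM libraries and rose by 5.99 (SE 0.17, adjusted p = 1.54e-10). Krt8 and Krt18, which acinar cells also make, rose less, by 2.45 (SE 0.11, adjusted p = 4.00e-09) and 1.22 (SE 0.10, adjusted p = 5.73e-07). The tight junction protein Cldn4 stood at 2.13, 3.46 and 5.01 CPM in the gland libraries and 1109, 1138 and 932 CPM in the DM libraries and rose by 8.17 (SE 0.22, adjusted p = 1.17e-10). Every DM library was far above every gland library for Krt7, Krt19 and Cldn4. Cldn10, the claudin of acinar junctions, went the other way, with 330.2, 329.9 and 265 CPM in the gland libraries and 0, 0.192 and 0 CPM in the DM libraries, and fell by 11.96 (SE 0.32, adjusted p = 1.17e-10). Cldn3 fell by 2.34 (SE 0.34, adjusted p = 6.47e-05), or had a log2 fold change of -0.37 with total counts. The proton pump subunit Atp6v1b1, a mark of acid-secreting duct cells, stood at 5.5, 10.2 and 11.7 CPM in the gland libraries and 0.0513, 0.0384 and 0.0792 CPM in the DM libraries and fell by 7.18 (SE 0.53, adjusted p = 2.44e-07). The sodium pump regulator Fxyd3 had a log2 fold change of -0.17 (95% interval -0.45 to 0.11), or 1.80 with total counts. Aqp4, a water channel of the basal membrane, stood at 2.31, 4.56 and 3.86 CPM in the gland libraries and 530.0, 524 and 284 CPM in the DM libraries and rose by 6.95 (SE 0.46, adjusted p = 9.43e-08). It was also 2.84 above EM organoids (SE 0.33, adjusted p = 1.19e-04), with the DM library of LG8 the lowest of the 3.

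Basal cell genes rose almost as a block, 20 of 22, where 38.1% of all genes were higher. Their median was 4.50, and all 20 kept their call under every scaling. Krt5, the basal keratin, stood at 22.6, 32.1 and 33.3 CPM in the gland libraries and 2598, 2868 and 2459.5 CPM in the DM libraries and rose by 6.49 (SE 0.17, adjusted p = 1.15e-10). Krt14, its partner, stood at 27.9, 34.6 and 29.8 CPM in the gland libraries and 2189.6, 2346 and 1565 CPM in the DM libraries and rose by 6.05 (SE 0.18, adjusted p = 2.66e-10). Trp63, the master factor of basal cells, rose less, with 4.97, 8.75 and 9.9 CPM in the gland libraries and 77.6, 77.1 and 67.4 CPM in the DM libraries, by 3.21 (SE 0.17, adjusted p = 1.94e-08). Krt17, a keratin of activated epithelium, rose by 8.12 (SE 0.17, adjusted p = 3.22e-11), Col17a1 of the hemidesmosome by 4.95 (SE 0.13, adjusted p = 1.01e-10) and the surface receptor Ngfr from 0.485 to 66.9 CPM. The integrin Itga6 and the desmosomal Perp, both well expressed in gland, rose by 1.503 (SE 0.10, adjusted p = 1.10e-07) and 1.19 (SE 0.11, adjusted p = 1.85e-06). The 2 lower members were Tnfrsf19, also a Wnt target, with a fall of 3.85 (SE 0.27, adjusted p = 1.44e-07), and the linker Dst, with 0.28 (SE 0.09, adjusted p = 0.0185), a call lost without gland LG7, gland LG8 or DM LG8 (-0.25, -0.26 and -0.21). Dst was 1.69 higher with total counts and 0.11 higher without the 10 most abundant gland genes. For Krt5, Krt14 and Krt17, DM organoids also stood above EM organoids, by 0.50 (SE 0.13, adjusted p = 0.0154), 1.64 (SE 0.15, adjusted p = 2.59e-05) and 0.75 (SE 0.12, adjusted p = 7.56e-04).

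Genes of stratified epithelia were higher too, 17 of 19 tested of 28 listed, where 38.1% of all genes tested were. The 9 untested members were low in both groups, and a gene low in gland passed the filter on low counts only where organoids had it. Dsg3, the desmoglein of basal and lower layers, had 1 count in the gland libraries and stood at 188, 221 and 153 CPM in DM organoids, and was 3546-fold higher in DM organoids (95% counting interval 636 to 140070.0, adjusted p = 6.22e-10). Krt6a, a keratin of wounded and stratified epithelium, stood at 0.355, 1.64 and 1.54 CPM in the gland libraries and 986, 915 and 656 CPM in the DM libraries and rose by 9.45 (SE 0.31, adjusted p = 4.41e-10). Sprr1a, an envelope precursor, stood at 0, 0.729 and 0.643 CPM in the gland libraries and 429, 582 and 580.3 CPM in the DM libraries and rose by 10.10 (SE 0.29, adjusted p = 1.81e-10). The desmosomal Pkp1 rose by 7.52 (SE 0.26, adjusted p = 5.58e-10), and Dsp, present in all epithelia, by 1.86 (SE 0.10, adjusted p = 1.71e-08). Krt10, the keratin of the upper epidermis, was the 1 lower member, with 3.55, 5.83 and 4.11 CPM in the gland libraries and 2.0, 2.42 and 1.78 CPM in the DM libraries, a fall of 1.11 (SE 0.26, adjusted p = 0.00219), or 0.86 with total counts. Of 14 ocular surface genes in the count table, 7 were tested. Beside 38.1% of all genes, 5 of those 7 were higher. They were led by the membrane mucin Muc4, with 0.355, 1.64 and 0.771 CPM in the gland libraries and 833, 762 and 607 CPM in the DM libraries, a rise of 9.66 (SE 0.31, adjusted p = 3.26e-10). Krt12, the keratin of the cornea, stood at 0, 0.182 and 0.129 CPM in the gland libraries and 18.5, 21.1 and 7.13 CPM in the DM libraries and was 146-fold higher in DM organoids (95% counting interval 40.2 to 1204, adjusted p = 5.29e-06). The retinal dehydrogenase Aldh1a1 was the lower one, by 4.86 (SE 0.30, adjusted p = 5.82e-08).

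Contractile genes of myoepithelial cells differed one from another. Of 13 tested, 4 were higher, 5 lower and 4 not called, near the shares over all genes (38.1% higher and 37.4% lower). Above EM organoids were 11, where 17.2% of all genes were. Acta2, smooth muscle actin, stood at 112, 119 and 109.5 CPM in the gland libraries and 81.8, 85.8 and 186 CPM in the DM libraries, with a log2 fold change of 0.06 (95% interval -0.51 to 0.63), or 2.04 with total counts. The DM library of LG8 was above every gland library and the other 2 below them. Without it Acta2 had a log2 fold change of -0.43 (adjusted p = 6.23e-04). Mylk, the myosin light chain kinase, stood at 40.5, 51.0 and 53.6 CPM in the gland libraries and 50.3, 58.4 and 34.3 CPM in the DM libraries, with a log2 fold change of -0.02 (95% interval -0.44 to 0.39), or 1.95 with total counts. In EM organoids Acta2 stood at 6.19, 5.78 and 5.26 CPM and Mylk at 0.54, 0.731 and 0.373 CPM. The definitive smooth muscle proteins stayed far below gland. Myh11, smooth muscle myosin, stood at 72.6, 85.5 and 74.4 CPM in the gland libraries and 0, 0.154 and 0.277 CPM in the DM libraries and fell by 8.90 (SE 0.33, adjusted p = 9.72e-10). Cnn1, calponin, stood at 21.5, 23.3 and 21.1 CPM in the gland libraries and 0.0513, 0.231 and 0.713 CPM in the DM libraries and fell by 5.95 (SE 0.48, adjusted p = 5.43e-07), with DM organoids 3.41 above EM (SE 1.02, adjusted p = 0.0269). Tropomyosins and smoothelin were above gland: Tpm1 rose by 3.10 (SE 0.14, adjusted p = 3.81e-09), Tpm2 by 2.90 (SE 0.09, adjusted p = 3.72e-10) and Smtn by 2.60 (SE 0.19, adjusted p = 2.18e-07). Cald1 rose by 0.70 (SE 0.12, adjusted p = 2.30e-04). In bulk samples fewer cells of a type and less RNA per cell cannot be told apart, here and for every list above.

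**Figure D4:**
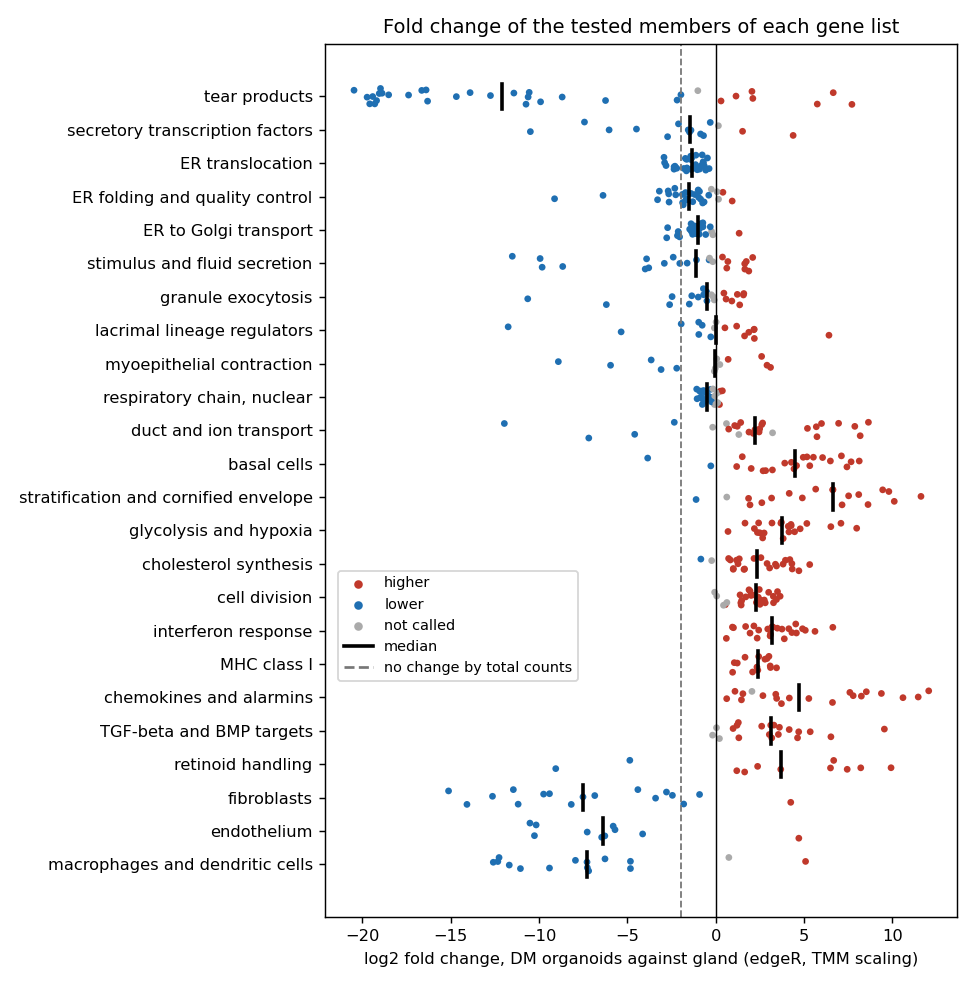
Log2 fold change of DM organoids against gland (horizontal axis, TMM scaling) for the tested members of 24 gene lists, 1 point a gene, red for higher, blue for lower and grey for not called, with a black bar at each list's median. The dashed line at -1.97 is where a gene would show no change with total counts. Tear products have a median of -12.08, the medians of the 3 ER lists lie between 0 and the dashed line, and basal and stratification lists have medians of 4.50 and 6.62.

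Energy metabolism differed by pathway. All 22 genes of glycolysis and the hypoxia response were higher in DM organoids and kept that call under every scaling, with a median of 3.76. Among all genes tested, 38.1% were higher and 35.5% kept that call. The summed level of the list was 1338 to 1415 CPM in gland and 14530 to 15328 CPM in DM. Gapdh stood at 103, 92.1 and 105 CPM in the gland libraries and 1779, 1710.5 and 1801 CPM in the DM libraries and rose by 4.14 (SE 0.11, adjusted p = 1.01e-10). Pkm, pyruvate kinase, stood at 139.9, 123 and 135 CPM in the gland libraries and 2446, 2504 and 2658 CPM in the DM libraries and rose by 4.26 (SE 0.11, adjusted p = 9.97e-11), and Eno1, enolase, rose by 4.27 (SE 0.09, adjusted p = 3.80e-11). Hk2, the inducible hexokinase, was the member closest to gland and rose by 0.69 (SE 0.10, adjusted p = 6.45e-05). In EM organoids Gapdh stood at 2219 and Pkm at 2340.2 CPM.

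Nuclear genes of the respiratory chain stayed near the gland level. Of 30, 24 had their 95% interval inside the 2-fold band, 20 were lower and 3 higher, with a median of -0.47, and all 30 were higher with total counts. Among all genes tested, 35.5% lay inside the band, 37.4% were lower and 84.0% were higher with total counts. Atp5a1 of the ATP synthase stood at 568, 500.4 and 483 CPM in the gland libraries and 509, 515 and 535 CPM in the DM libraries, with a log2 fold change of 0.01 (95% interval -0.19 to 0.20), or 1.98 with total counts. Ndufb5 and Ndufa9 of complex I fell most among the named members, by 1.08 (SE 0.09, adjusted p = 9.71e-07) and 1.05 (SE 0.08, adjusted p = 2.32e-07), and were 0.90 and 0.92 higher with total counts. Of 9 tested genes of the mitochondrial genome, 5 were lower and none higher. mt-Cytb stood at 5898, 5412 and 5078 CPM in the gland libraries and 1921, 1577 and 1319.9 CPM in the DM libraries and fell by 1.77 (SE 0.15, adjusted p = 7.55e-07), or had a log2 fold change of 0.21 with total counts. mt-Co1 stood at 7389, 7140.5 and 6256 CPM in the gland libraries and 7006, 5394 and 4919 CPM in the DM libraries, with a log2 fold change of -0.26 (95% interval -0.61 to 0.08), or 1.71 with total counts. Without DM LG6, mt-Co1 was called lower, at -0.40.

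Cholesterol synthesis was higher, with 22 of 24 genes up and a median of 2.36, all of them under every scaling. The share of all genes that were higher was 38.1%. Below EM organoids were 9 of the 24, where 13.2% of all genes were, and above them 2, where 17.2% were. Hmgcs1, an early enzyme of the pathway, rose by 0.83 (SE 0.11, adjusted p = 3.19e-05). Ebp, a sterol isomerase, was the 1 lower member, by 0.84 (SE 0.10, adjusted p = 1.21e-05), or 1.13 higher with total counts, and the feedback regulator Insig1 had a log2 fold change of -0.23 (95% interval -0.52 to 0.06), or 1.74 with total counts. Without gland LG7, Insig1 was called lower, at -0.38.

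Cell division genes were higher than in gland, 26 of 30, where 38.1% of all genes were. All 26 kept their call under every scaling, and the list had a median of 2.27. Libraries of both groups differed in their levels. The summed level of the list was 506, 246 and 652 CPM in gland and 1188, 1405 and 2605 CPM in DM organoids, with 2430 to 2690 CPM in EM organoids. The DM library of LG8 thus stood within the range of the EM libraries, and gland LG7 was the lowest library. Without DM LG8 the count was 25 of 30, and without gland LG7 it was 25. Ube2c, which ends mitosis, stood at 5.15, 2.19 and 6.3 CPM in the gland libraries and 35.3, 40.3 and 77.1 CPM in the DM libraries and rose by 3.44 (SE 0.36, adjusted p = 4.97e-06). Cenpf, of the kinetochore, stood at 6.21, 0.729 and 5.79 CPM in the gland libraries and 34.0, 44.8 and 85.9 CPM in the DM libraries and rose by 3.65 (SE 0.46, adjusted p = 2.31e-05). The replication helicase subunit Mcm2 stood at 47.4, 22.8 and 53.7 CPM in the gland libraries and 34.2, 32.4 and 63.2 CPM in the DM libraries, with a log2 fold change of 0.06 (95% interval -0.60 to 0.71), or 2.03 with total counts. No member was called higher in DM than in EM organoids, and 1 was called lower, where 17.2% and 13.2% of all genes were.

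Interferon-stimulated genes were all higher. All 24 listed genes passed the test, with a median of 3.21, where 38.1% of all genes were higher. Of the 24, 23 kept the call under every scaling. The exception was Stat2, with a rise of 0.60 (SE 0.22, adjusted p = 0.0266), a call lost without gland LG6, gland LG8 or DM LG8 (0.45, 0.65 and 0.31). The DM libraries differed in level. The summed level of the list was 2818, 1717 and 3698 CPM in DM organoids and 298, 468 and 336 CPM in gland, so LG7 was lowest in DM and highest in gland. Oas3, an RNA-sensing synthetase, stood at 1.6, 1.09 and 1.29 CPM in the gland libraries and 124, 89.0 and 181 CPM in the DM libraries and rose by 6.63 (SE 0.34, adjusted p = 1.38e-08). Ifit1, which blocks foreign RNA, stood at 5.5, 10.6 and 5.14 CPM in the gland libraries and 165, 90.2 and 158 CPM in the DM libraries and rose by 4.31 (SE 0.29, adjusted p = 1.20e-07). Isg15, a ubiquitin-like modifier, stood at 4.08, 4.56 and 4.24 CPM in the gland libraries and 135, 69.2 and 184 CPM in the DM libraries and rose by 4.91 (SE 0.37, adjusted p = 2.73e-07). Every DM library was above every gland library for these 3. In EM organoids Oas3 stood at 173, Ifit1 at 116 and Isg15 at 133 CPM on average. Over the whole list, 1 of the 24 genes was called between DM and EM organoids: Gbp2, higher in DM. Of all genes, 17.2% were higher and 13.2% lower in DM than in EM.

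The promoter of Isg15 is shown because its element, repeated in overlapping copies, is the textbook form of an interferon-stimulated response element. The letters GAAA, any 2 bases and GAAA again, searched on both strands in the 250 bases before the start, were in 9 of 18 interferon genes with a promoter in the table, in 2 of 11 MHC class I genes (18.2%) and in 974 of 32817 promoters of all genes (2.97%). As for the ERSE, lists are counted by gene and the whole by promoter, and the contrast is no test. Isg15 lies at chr4:156200819-156201068 (- strand, GRCm38.p6, RefSeq) and is given 5′ to 3′ on the strand of the gene, with the 3 overlapping matches in capitals.
Isg15: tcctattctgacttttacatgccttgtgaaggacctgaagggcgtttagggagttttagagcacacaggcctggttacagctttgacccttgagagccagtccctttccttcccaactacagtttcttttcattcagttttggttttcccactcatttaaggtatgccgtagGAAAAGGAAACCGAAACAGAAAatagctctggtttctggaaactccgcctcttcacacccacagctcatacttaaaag
The first of them starts 78 bases before the start of the gene.

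Genes of MHC class I presentation rose with them, 14 of 14 where 38.1% of all genes were higher, with a median of 2.41, all under every scaling. H2-K1, a class I heavy chain, stood at 172, 239.9 and 175 CPM in the gland libraries and 1224, 952 and 2214 CPM in the DM libraries and rose by 2.90 (SE 0.27, adjusted p = 2.01e-06), but its reads can be shared with related class I genes. Psmb8, of the immunoproteasome, stood at 7.28, 7.84 and 6.94 CPM in the gland libraries and 70.9, 47.1 and 121 CPM in the DM libraries and rose by 3.44 (SE 0.32, adjusted p = 1.91e-06). For both the DM library of LG8 was the highest. Of 23 listed chemokine and alarmin genes, 20 were tested and 19 were higher than in gland, where 38.1% of all genes were. Higher than in EM organoids were 10, where 17.2% of all genes were. Of those listed, 5 had no count in gland. A gene absent from gland passed the filter on low counts only where organoids had it, so its direction was fixed by the filter. Lcn2, an iron-trapping defence protein, stood at 13.7, 20.4 and 15.2 CPM in the gland libraries and 4458, 3174 and 3133 CPM in the DM libraries and rose by 7.78 (SE 0.24, adjusted p = 3.02e-10). Il33, an alarmin, stood at 7.81, 8.75 and 5.66 CPM in the gland libraries and 252, 302 and 289 CPM in the DM libraries and rose by 5.27 (SE 0.15, adjusted p = 2.00e-10). Cxcl5, a neutrophil attractant, had 3 counts in gland and stood at 117, 118 and 93.9 CPM in DM organoids, and was 688-fold higher in DM organoids (95% counting interval 235 to 3339, adjusted p = 1.79e-10). Nos2, inducible nitric oxide synthase, had no count in gland, stood at 29.6, 11.9 and 45.2 CPM in DM organoids, and was at least 181-fold higher in DM organoids (adjusted p = 1.23e-04). The feedback inhibitor Nfkbia, well expressed in gland, rose by 0.62 (SE 0.13, adjusted p = 0.00111).

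Target genes of TGF-beta and BMP, growth factors that act through Smad proteins, were higher in 17 of 20, where 38.1% of all genes were. Their median was 3.14. Above EM organoids were 14 members, where 17.2% of all genes were. Fn1, fibronectin, stood at 22.2, 22.8 and 19.9 CPM in the gland libraries and 834, 1097 and 703 CPM in the DM libraries and rose by 5.35 (SE 0.22, adjusted p = 2.10e-09), and at 233, 187 and 286 CPM in EM organoids. Ccn2 rose by 4.16 (SE 0.21, adjusted p = 1.05e-08) and Ccn1 by 4.63 (SE 0.27, adjusted p = 3.32e-08). The inhibitors of differentiation differed, with Id4 up by 0.98 (SE 0.20, adjusted p = 7.98e-04) and Id2 at -0.18 (95% interval -0.41 to 0.05), or 1.79 with total counts.

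Counts for Wnt targets were close to the shares over all genes (38.1% higher and 37.4% lower), with 5 higher and 5 lower of 13 tested, and 8 were below EM organoids, where 13.2% of all genes were. Ascl2, a stem cell factor, stood at 23.4, 19.3 and 15.9 CPM in the gland libraries and 0.205, 0.231 and 0.594 CPM in the DM libraries and fell by 5.77 (SE 0.35, adjusted p = 4.76e-08). Rnf43, which removes Wnt receptors, fell by 1.86 (SE 0.16, adjusted p = 9.63e-07), or had a log2 fold change of 0.11 with total counts. The receptor Lgr4 rose by 2.23 (SE 0.13, adjusted p = 4.30e-08). Notch genes were higher in 9 of 10, beside 38.1% of all genes. The receptor Notch1 stood at 15.8, 14.6 and 17.4 CPM in the gland libraries and 100, 118 and 141 CPM in the DM libraries and rose by 2.90 (SE 0.14, adjusted p = 5.99e-09), and the ligand Jag2 and the target Hes1 rose by 2.43 (SE 0.11, adjusted p = 5.81e-09) and 2.55 (SE 0.15, adjusted p = 3.09e-08). Lfng, which modifies Notch receptors, fell by 0.88 (SE 0.19, adjusted p = 0.00119), or was 1.09 higher with total counts.

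Of 16 listed retinoid genes, 11 were tested and 9 rose, where 38.1% of all genes were higher. Above EM organoids were 7, where 17.2% of all genes were. No count was found in gland for 2 of those listed. A gene almost absent from gland, as Stra6 and Rarb were, passed the filter on low counts only where organoids had it. Its direction was thus fixed by the filter. Stra6, the retinol transporter, stood at 0.355, 0.729 and 1.03 CPM in the gland libraries and 132, 138 and 119 CPM in the DM libraries and rose by 7.44 (SE 0.19, adjusted p = 8.25e-11). The receptor Rarb, itself a retinoic acid target, stood at 0.178, 1.28 and 0.257 CPM in the gland libraries and 52.0, 54.2 and 58.7 CPM in the DM libraries and rose by 6.68 (SE 0.29, adjusted p = 3.26e-09). Aldh1a1 and Crabp1 were the 2 lower members, and Crabp1 stood at 13.7, 7.84 and 11.7 CPM in gland with 1 count in all DM libraries, and was 790.2-fold lower in DM organoids (95% counting interval 140.3 to 31357, adjusted p = 4.43e-07).

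Defining markers of fibroblasts, endothelium, macrophages and red blood cells were at or near 0 in the cultures. Of 17 fibroblast genes 16 were lower and of 10 endothelial genes 9. Of 15 macrophage and dendritic cell genes 13 were lower. Among all genes tested, 37.4% were lower and 38.1% higher. A gene absent from the organoids passed the filter on low counts only where gland had it, so its direction was fixed by the filter. The 4 fibroblast markers Col1a1, Col3a1, Dcn and Pdgfra summed to 516 to 613 CPM in gland and to 0.154 to 0.538 CPM in DM organoids, with Col3a1 at 0 counts. Pecam1, Cdh5 and Kdr of endothelium summed to 19.9 to 28.3 and to 0.154 to 0.277 CPM, with Kdr at 0. Csf1r, Adgre1 and C1qa of macrophages summed to 66.8 to 98.6 and to 0.308 to 0.564 CPM, with Adgre1 and C1qa at 0. Hemoglobin genes Hbb-bs and Hba-a1 summed to 48.7 to 165 CPM in gland and had no count in DM organoids. T cell, B cell, fat and Harderian gland markers summed to no more than 17.2 CPM in any gland library and 0.317 CPM in any DM library. Markers of other cell types did not all fall. Schwann cell markers summed to 1.64 to 5.15 CPM in gland and 1.33 to 1.62 CPM in DM organoids, and 2 of the 4 tested genes of that list were higher and none lower. Skeletal muscle markers summed to 0.771 to 1.78 CPM in gland and 1.23 to 2.81 CPM in DM organoids, and the 3 tested genes of that list were higher. That list held 9 genes, 5 of them with no count in gland. Of 5 tested pericyte genes, 3 were lower and 2 higher. The labelled tissue held acinar markers in every gland library, Bhlha15, Aqp5, Lpo, Car6, Rab3d and Chrm3 summing to 10738 to 11864 CPM, and these summed to 90.5 to 104 CPM in DM organoids. The part of these other cells in the falls given above was not tested.

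A few genes on these lists rose although the defining markers of their cell types were at or near 0. Flt1, a VEGF receptor, stood at 14.2, 9.84 and 9.9 CPM in the gland libraries and 252, 276 and 350.2 CPM in the DM libraries and rose by 4.70 (SE 0.19, adjusted p = 2.03e-09). Cd14, the receptor for bacterial lipopolysaccharide, stood at 5.86, 11.7 and 9.9 CPM in the gland libraries and 294, 279.6 and 361 CPM in the DM libraries and rose by 5.08 (SE 0.19, adjusted p = 1.21e-09). Fbln1, fibulin, stood at 4.26, 4.19 and 3.6 CPM in the gland libraries and 59.1, 55.1 and 113 CPM in the DM libraries and rose by 4.25 (SE 0.31, adjusted p = 2.35e-07). Rgs5, a pericyte gene, stood at 13.8, 16.0 and 10.8 CPM in the gland libraries and 35.6, 40.4 and 21.1 CPM in the DM libraries and rose by 1.27 (SE 0.27, adjusted p = 0.00129), against 0.125, 0.183 and 0.497 CPM in EM organoids, while the pericyte receptor Pdgfrb had no count in DM organoids. Sparc and Vim, which many cell types make, fell less than the defining markers, by 2.79 (SE 0.17, adjusted p = 6.33e-08) and 0.91 (SE 0.24, adjusted p = 0.0044), with Vim at 1.06 with total counts.

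Genes of translation were among the abundant genes inside the 2-fold band, although they were called lower. Of the 4874 genes whose interval lay inside the 2-fold band, 2389 were not called, 1331 were lower and 1154 higher. The 10 most abundant in gland were mt-Co1, Eef1a1, Eef2, Rplp0, Ly6e, Rpl7, mt-Nd5, Eif4g2, Rack1 and Rpl13a, of which Eef1a1, Eef2, Eif4g2, Rplp0, Rpl7, Rpl13a and Rack1 act in translation. Those translation genes were all called lower under TMM scaling, from -0.73 for Rpl7 to -0.25 for Rack1, and all were higher with total counts. The share of translation genes among abundant genes in general was not counted. Eef1a1, which brings aminoacyl-tRNA to the ribosome, stood at 6631, 6974 and 5772 CPM in the gland libraries and 4170.3, 4123 and 3899 CPM in the DM libraries, a fall of 0.67 (SE 0.12, adjusted p = 3.07e-04), or 1.31 higher with total counts. The band itself rests on TMM scaling: with total counts it held 1001 genes.

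At the other end were genes found in 1 group and almost absent from the other. Of 8171 genes of at least 10 CPM in gland, 345 were under 1 CPM in DM organoids and 95 of them had no count there. Of 8367 genes of at least 10 CPM in DM organoids, 226 were under 1 CPM in gland and 21 had no count there. The 8 largest rises had no count in any gland library. Mab21l3 stood at 48.0, 44.3 and 43.5 CPM, at least 284-fold above gland, and at 34.8, 36.1 and 28.0 CPM in EM organoids. Psapl1, a saposin-like gene of stratified epithelia, stood at 42.3, 38.4 and 33.4 CPM, at least 238-fold above gland. The chemokine Ppbp stood at 36.2, 44.1 and 10.8 CPM, at least 189-fold above gland. Lypd3, Htra4, Calcb and Clca3b followed with bounds of 183, 168, 142 and 137-fold. The most abundant genes of DM organoids were Ltf, mt-Co1, Anxa1, Eef1a1, Clu, Lcn2, Wfdc18, Krt5, Pkm and Ecm1, of which Anxa1, a phospholipid-binding protein of surface epithelia, rose by 5.90 (SE 0.17, adjusted p = 1.82e-10) and Ecm1, an extracellular matrix protein, by 7.82 (SE 0.19, adjusted p = 6.35e-11).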

How the data were processed

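RNA from 3 gland pieces and from uncloned organoids in EM and DM (3 cultures each) was sequenced as stranded libraries of polyadenylated RNA, per the labels' protocols. The authors deposited whole-number counts per gene, not normalised. STAR, featureCounts and the build GRCm38 are named in the submitters' processing notes, with versions, annotation and the treatment of multiply mapped reads not given in the sources used here. Of 38293 gene IDs, 36429 matched GENCODE M21, and 0.313% of counts lay on the others.

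Counts of all 9 libraries were fitted in R 4.3.3 with edgeR 4.0.16 (quasi-likelihood test, TMM scaling, filterByExpr, 13713 genes, 6 residual degrees of freedom, biological coefficient of variation 0.138). Calls use a Benjamini-Hochberg adjusted p under 0.05 over all genes tested. Each SE was taken as |log2 fold change| divided by the root of F. A bound rests on 3 counts over the group at 0, and the 95% interval for 1 to 3 counts is exact, and both cover counting error only. On simulated counts with the depths of this comparison (13339 genes), 82 of 100 genes changed 2-fold and 100 of 100 changed 4-fold were recovered, with 8 false calls among 13139 unchanged genes. In the simulation DM organoids had the gland means except for the changed genes, with a common spread for all genes. The assumption of TMM scaling held there by design, so these figures do not cover errors of scaling between groups as unlike as gland and DM organoids. Replicates were checked for duplicated libraries, and none were found. Alternatives were DESeq2 1.42.0, other scalings, no filter, the 6 libraries alone, a replicate block and leaving out each library.

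The 41 lists (727 of 729 entries matched a gene in the table) and all comparisons were chosen with earlier results of these data known, so lists are described by counts and medians, without a set test. Named genes are Pax6, the 8 largest rises and falls, the 10 most abundant genes of each group and of the 2-fold band, defining markers and, in each list, the 4 smallest p, any call against the majority and the 3 members closest to gland, of which the text uses a part, and a few listed genes are counted but not reported here by name. Adra1a, Aqp4, Canx, Creld2, Esp15, Gbp2, Hspa5, Isg15, Krt12, Ngfr, Syvn1, Xbp1, mt-Co2 and mt-Co3 were named after their values were seen. Promoters are from RefSeq (GRCm38.p6).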

Additional observations from a re-analysis of the deposited data

How the results depend on the processing

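Scaling was the choice that mattered. With total-count scaling 11516 genes were higher, 1270 lower and 1001 inside the 2-fold band, against 5223, 5135 and 4874 with TMM. Upper-quartile scaling gave 4874 higher and 5510 lower, DESeq2's size factors 5233 and 5126, DESeq2 itself 5377 and 5888, no filter on low counts 5758 and 5888, and the 6 libraries alone 4914 and 4887. Leaving out each of the 9 libraries in turn gave 5069 to 5245 higher, 4955 to 5176 lower and 4565 to 4814 in the band. A minimum log2 fold change of 1 left 3446 higher and 3062 lower genes, and a 1.5-fold band held 2264. The sample numbers were not taken as pairs, since not every same-numbered correlation was above 0.1: the correlations of same-numbered gland and DM libraries were -0.075, 0.056 and 0.123, and 2 of the 3 DM libraries correlated best with the gland library of its own number. The fit with the number as a replicate block gave 5192 higher, 5105 lower and 4833 in the band, and changed no call among the 209 named genes tested. With total-count scaling 43 of these genes changed the sign of their log2 fold change, to values of mt-Co1 1.71, Eef1a1 1.31, mt-Cytb 0.21, Eef2 1.32, Rplp0 1.60, Hspa5 1.23, Rpl7 1.25, mt-Nd5 1.71, Rack1 1.73, Eif4g2 1.29, Rpl13a 1.41, Calr 1.72, Pigr 0.0091, Canx 1.32, Pam 0.62, Pax6 1.21, Stt3a 1.41, Fxyd3 1.80, Ssr1 1.502, Stt3b 1.60, Stxbp2 1.83, Dst 1.70, Meis1 1.01, Rab27a 1.89, Golga2 1.81, Ndufa9 0.92, Creld2 0.27, Foxc1 1.69, Ndufb5 0.90, Insig1 1.74, Gna11 1.60, Mylk 1.95, Ebp 1.13, Id2 1.79, Stim1 1.80, Kcnn4 1.62, Vim 1.06, Rnf43 0.11, Six2 1.02, Fgfr2 1.89, Lfng 1.09, Mitf 0.011 and Krt10 0.86. With total counts without the 10 genes most abundant in gland, 7 did, to values of Rplp0 0.016, Rack1 0.14, Stt3b 0.015, Stxbp2 0.25, Dst 0.11, Foxc1 0.11 and Gna11 0.017. Acta2 ranged from -0.43 to 0.29 when single libraries were left out, the lowest without DM LG8. The calls of Ly6e, Rack1 and mt-Nd5, which lie inside the band, changed when single libraries were left out. Depth limits what can be said of genes with few counts, since the 3 counts behind a bound are worth more CPM in gland than in DM libraries.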

Other observations

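Steroid and p53 genes were listed but belong to no step of secretion. Prlr, the prolactin receptor, fell from 68.0 to 0.207 CPM, by 8.28 (SE 0.26, adjusted p = 3.26e-10). Srd5a1, which makes dihydrotestosterone, stood at 3.2, 3.28 and 3.09 CPM in the gland libraries and 177, 196 and 64.5 CPM in the DM libraries and rose by 5.52 (SE 0.44, adjusted p = 5.12e-07), against 13.1, 14.4 and 12.2 CPM in EM organoids. Fkbp5, a target of steroid receptors, fell by 2.25 (SE 0.21, adjusted p = 1.50e-06), or had a log2 fold change of -0.29 with total counts. Of 16 p53 targets 12 were higher and 1 lower, beside 38.1% and 37.4% of all genes. All of the higher ones kept their call under every scaling. Cdkn1a, the cell cycle inhibitor, stood at 3.02, 2.73 and 3.34 CPM in the gland libraries and 186, 185 and 146 CPM in the DM libraries and rose by 5.81 (SE 0.16, adjusted p = 1.61e-10), and stood above EM organoids by 0.74 (SE 0.11, adjusted p = 5.39e-04). Phlda3 rose by 3.62 (SE 0.20, adjusted p = 2.70e-08), while Ccng1 had a log2 fold change of 0.15 (95% interval -0.06 to 0.37), or 2.13 with total counts. Without DM LG8, Ccng1 was called higher, at 0.23.

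Several listed genes of the mitochondrial genome were counted at almost nothing in every library while their neighbours were abundant: mt-Co3 stood at 1.78, 0.547 and 1.03 CPM in gland and 0.564, 0.308 and 0.317 in DM organoids, and mt-Co2 at 1.24, 1.64 and 1.03 and 0.871, 0.769 and 0.832. How the authors' counting treated reads that match more than 1 place is not given in the sources used here, and these 2 genes are not read as levels.

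Igha, an antibody heavy chain, stood at 62.3, 2.37 and 2.19 CPM in the gland libraries, and Jchain at 16.3, 5.47 and 3.99, so LG6 held most of the plasma cell signal. Neither had more than 0.0524 CPM on average in DM organoids.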
